A study of Mus musculus with 9 samples.

Results

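Progression from G1 into S phase is governed by the D-type cyclins, their partner kinases CDK4 and CDK6, and the retinoblastoma (Rb) family of pocket proteins. The 8 genes of this module, Ccnd1, Ccnd2, Ccnd3, Cdk4, Cdk6, Rb1, Rbl1 and Rbl2, were taken by symbol from the deposited table of 56980 genes and followed through 9 RNA-seq libraries of cultured mouse cells. All 8 were among the 17001 genes that passed the filter on low counts. The cells were primary oligodendrocyte progenitor cells (OPCs), dividing cells that give rise to the oligodendrocytes of myelin, and every group had the genotype Trp53 -/-, so that no p53-intact cell was compared. All groups grew in SATO medium with 10 ng/mL PDGF-AA, insulin and forskolin. The group p53n held p53-null OPCs labelled as control, BB-p53n DMSO held p53-null OPCs expressing PDGF-BB and given DMSO as vehicle, and BB-p53n EZH2i held such PDGF-BB cells with 5 µM tazemetostat, an inhibitor of the histone methyltransferase EZH2, for 48 hours. Each group had 3 libraries of polyadenylated RNA.

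D cyclins are made in response to growth factors such as the platelet-derived growth factors that keep OPCs dividing, and they activate CDK4 and CDK6. The active kinases phosphorylate RB1 (encoded by Rb1), p107 (Rbl1) and p130 (Rbl2), which otherwise bind E2F transcription factors and hold genes of DNA replication silent. RB1 mainly restrains activating E2F factors, p130 is the pocket protein of resting cells, and p107 is itself made from an E2F target gene in cycling cells. INK4 proteins inhibit CDK4 and CDK6, and CIP/KIP proteins inhibit CDK2 complexes.

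Total counts ranged from 19471768 to 34557109 per library. How PDGF-BB was introduced and how many lines were used is not in the labels, and neither is whether replicates were separate cultures, so that the p-values reflect a spread that may be technical. Of the OPC markers, Pdgfra, Cspg4, Olig1, Olig2 and Nkx2-2 were present in every group, whereas Sox10 was low in p53n at 2.21 CPM ± 0.293 (SD, n = 3; CPM are TMM-scaled counts relative to library size) and reached 299.5 CPM ± 16.4 in BB-p53n DMSO. By log2 fold change between these groups, Pdgfra (-0.61) and Nkx2-2 (-1.26) fell, Cspg4 (0.83) and Olig2 (0.59) rose, and Olig1 was at 0.03. The summed level of 7 markers of differentiating oligodendrocytes ran from 3124 to 3245 CPM in p53n, from 426.5 to 476.2 CPM with PDGF-BB and DMSO, and from 346.7 to 391.3 CPM with the inhibitor added. Xist, the RNA of the inactive X chromosome, lay at 2777 to 3101 CPM in p53n and at 2.82 to 65.0 CPM in the PDGF-BB cells, while the Y-linked Ddx3y lay below 1 CPM in p53n and at 5.86 to 53.6 CPM in the PDGF-BB cells. Xist and Y-linked genes also differed between the PDGF-BB groups. With the inhibitor against DMSO, log2 fold changes were -2.63 (Xist), -2.42 (Ddx3y), -2.25 (Eif2s3y), -1.64 (Kdm5d) and -2.45 (Uty). With the trend on GC content and length removed (explained below), they were -0.89, -0.64, -0.97, -0.315 and -0.324 in that order. All passed the test given below as lower, except Xist with the trend removed. The cause was not tested. The sample titles name DMSO for PDGF-BB cells and no vehicle for p53n. With this and the Xist and Ddx3y levels of p53n, PDGF-BB expression, vehicle and the origin of the cells cannot be told apart in the first comparison. Mitochondrial genes took 5.28% ± 0.716, 2.54% ± 0.0920 and 1.43% ± 0.101 (SD, n = 3 each) of the counts in the order of the groups above. The mouse Pdgfb row held 1 count in p53n and 16 in BB-p53n DMSO, which does not check the label, because the labels do not say whether the construct's transcript would be counted in that row. Trp53 averaged 7.35 and 13.6 CPM in these groups.

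Promoter sequences from RefSeq (GRCm38.p6) were at hand for 5 of the 8 genes, and those of Rbl1 and Cdk4 are shown because Rbl1 held an E2F word and Cdk4 several E-boxes. The 250 bases before the transcription start are given 5′ to 3′ on the gene's strand, at chr2:157204535-157204784 (minus strand) for Rbl1 and chr10:127063285-127063534 (plus strand) for Cdk4. Capitals mark an E2F word (TTTGGCGC, TTTCCCGC, TTTCGCGC or TTTGCCGC) in Rbl1 and the E-box CACGTG, the sequence bound by MYC and related factors, in Cdk4.
Rbl1: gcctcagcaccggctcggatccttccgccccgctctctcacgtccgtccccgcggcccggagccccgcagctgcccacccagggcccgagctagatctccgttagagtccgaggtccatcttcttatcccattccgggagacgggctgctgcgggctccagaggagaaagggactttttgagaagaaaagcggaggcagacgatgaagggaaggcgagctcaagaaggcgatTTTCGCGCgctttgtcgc
Cdk4: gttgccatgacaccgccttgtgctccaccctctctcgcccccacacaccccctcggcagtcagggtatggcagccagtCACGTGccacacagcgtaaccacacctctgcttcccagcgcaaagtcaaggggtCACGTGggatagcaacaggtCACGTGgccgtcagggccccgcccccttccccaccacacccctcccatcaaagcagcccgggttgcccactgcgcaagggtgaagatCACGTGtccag
Both motifs and the AP-1 word TGANTCA were searched on both strands in windows of 300 bases, and the E-box was added after the Cdk4 sequence had been read. The Rbl1 window held 1 E2F word, TTTCGCGC, starting 18 bases before the start site, and an E2F word was found in 744 of 32851 promoters (2.26%). The Cdk4 window held 4 E-boxes, starting 172, 118, 98 and 11 bases before the start site, and the Cdk6 window held 1, against at least 1 in 7.15% of all promoters. The windows of Ccnd3 (2 entries) and Rbl2 held none of these words, and no window of the 5 genes held the AP-1 word, which occurred in 7.81% of promoters. A match is a string of letters and no evidence of binding.

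The first comparison, BB-p53n DMSO against p53n, asks what accompanied PDGF-BB expression. All 3 D cyclins, both kinases and Rbl1 rose in the PDGF-BB cells, and Rb1 fell. Ccnd1 moved most, 11.1-fold, followed by Rbl1 at 4.07-fold and Cdk6 at 3.59-fold. In edgeR's quasi-likelihood test with Benjamini-Hochberg adjustment over all tested genes, 6 members were higher and 2 lower, while 69.3% of all 17001 genes passed in this comparison (35.3% higher and 34% lower). The libraries of all 8 members did not overlap between the groups, as for 76.1% of all genes. With the trend on GC content and length removed (explained with the second comparison) the same counts of 6 and 2 stood beside 32.3% of genes higher and 40% lower. The median log2 fold change was 1.29 over the 8 members and -0.02 over all tested genes. In bulk RNA a change in the share of dividing cells and a change in RNA per cell cannot be told apart.

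**Figure D1:**
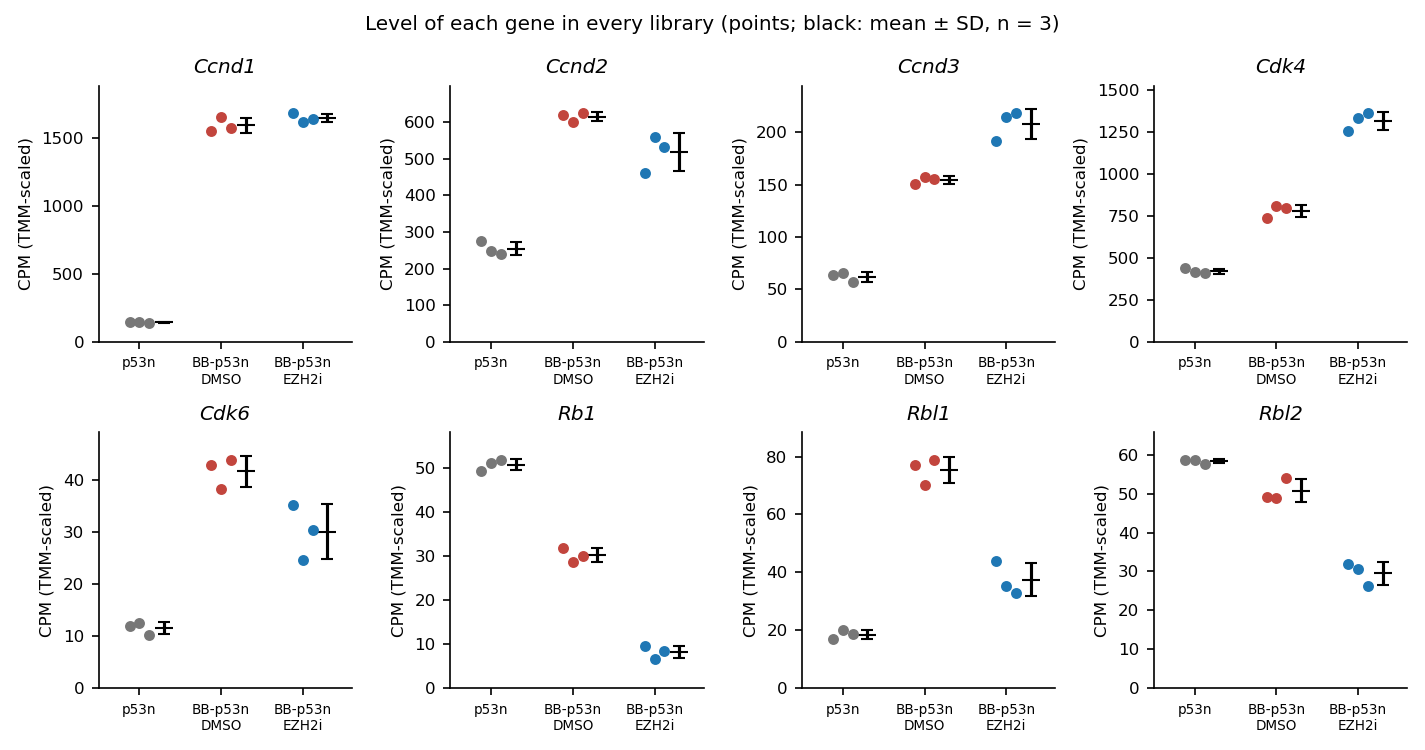
Level of each of the 8 genes in TMM-scaled CPM (vertical axis, from 0) in the 3 libraries of each group (coloured points), with the mean ± SD (black, n = 3). Ccnd1 lies at 141.4 to 144.7 CPM in p53n and at 1555 to 1683 CPM in the PDGF-BB libraries, and Rb1 steps down from 50.8 to 30.2 to 8.26 CPM on average.

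Ccnd1 encodes cyclin D1, the D cyclin most widely induced by growth factors (ENSMUSG00000070348, chromosome 7, 144483668 to 144493662, minus strand, GRCm39 as in the deposited table for all positions of genes). Its level was 143.9, 144.7 and 141.4 CPM in p53n and 1555, 1653 and 1574 CPM in BB-p53n DMSO. Every PDGF-BB library lay more than 10 times above every p53n library, and the spread within a group was small beside that gap. The log2 fold change was 3.48 (SE 0.07, adjusted p = 4e-19), a size exceeded by 2.82% of tested genes. Exons of LTO1, on the opposite strand, cover 23.4% of the exon bases of Ccnd1, and counting without strand cannot separate the pair there. Over the 9 libraries LTO1 had 3737 counts and Ccnd1 277327.

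Ccnd2, encoding cyclin D2 (chromosome 6, 127102125 to 127129156, minus strand), stood at 274.4, 248.9 and 238.9 CPM in p53n and at 619.7, 601.0 and 623.7 CPM in BB-p53n DMSO. The groups did not overlap, and the rise was 2.42-fold (log2 fold change 1.28, SE 0.08, adjusted p = 5.5e-12). Ccnd3, encoding cyclin D3 (chromosome 17, 47815976 to 47910616, plus strand), stood at 63.9, 65.7 and 57.0 CPM in p53n and at 150.4, 157.3 and 155.9 CPM in BB-p53n DMSO. Its groups were likewise apart, with a 2.49-fold rise (log2 fold change 1.31, SE 0.07, adjusted p = 1.9e-12). Ccnd2 and Ccnd3 thus changed by similar factors, well short of Ccnd1.

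With these unequal rises, Ccnd1 took a larger share of the D cyclin transcript. Per length of exon it was the largest part in every library. That rank depends on the deposited exon lengths of Ccnd1, Ccnd2 and Ccnd3 (4709, 9409 and 8775 bases), which take in all annotated exons. In CPM, without division by length, Ccnd2 lay above Ccnd1 in every p53n library. Per length of exon, the summed D cyclin level was 64.5 CPM per kb ± 2.56 (SD, n = 3) in p53n and 421.4 CPM per kb ± 10.2 in BB-p53n DMSO, 6.53 times as high. In p53n, Ccnd1 and Ccnd2 were near parity, with 47.2% ± 1.47 and 41.8% ± 1.48 of the sum, and Ccnd3 made up 10.98% ± 0.553. In BB-p53n DMSO, Ccnd1 took 80.3% ± 0.688, Ccnd2 15.5% ± 0.658 and Ccnd3 4.18% ± 0.0586. The Ccnd1 share ran from 45.6% to 48.5% in p53n and from 79.9% to 83.5% over the 6 PDGF-BB libraries, without overlap. These shares were described per library and not tested.

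**Figure D2:**
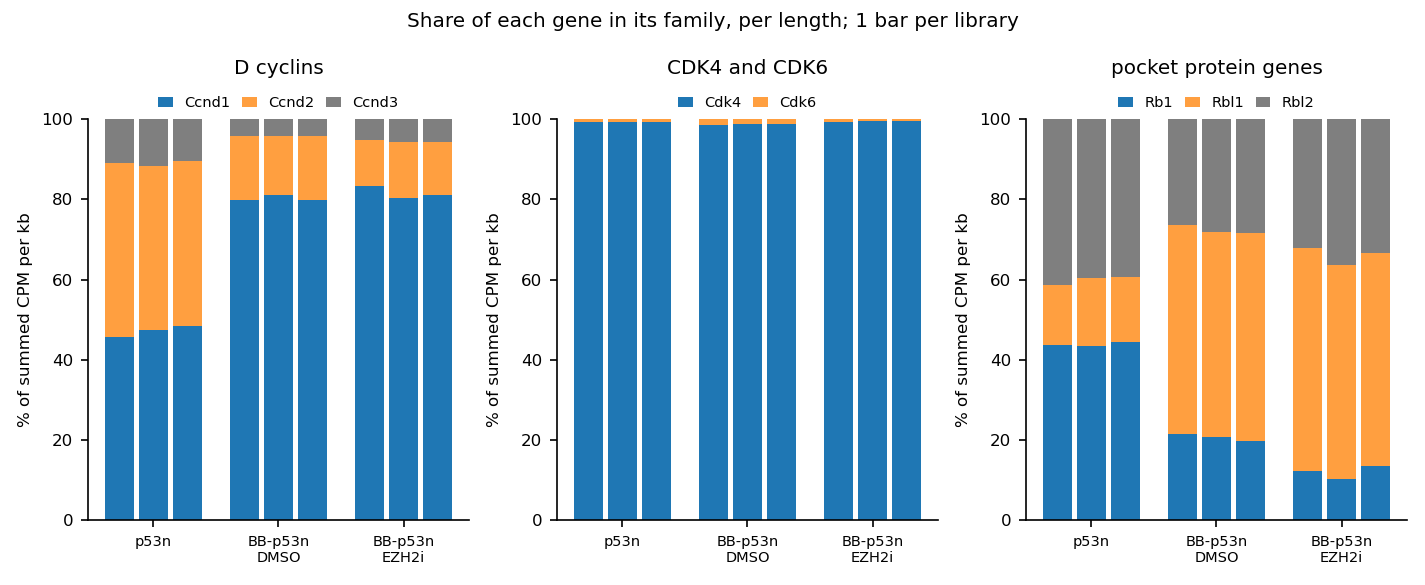
Share of each gene in the summed CPM per kb of its family (vertical axis, percent), with 1 bar per library, for the D cyclins, the kinases and the pocket protein genes. Ccnd1 goes from 47.2% to 80.3% of the D cyclin sum with PDGF-BB, and Rbl1 from 16.1% to 51.7% of the pocket protein sum.

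Cdk4, the D cyclin kinase gene with 4 E-boxes above (chromosome 10, 126899403 to 126903789, plus strand), stood at 438.3, 413.5 and 406.5 CPM in p53n and at 738.9, 806.7 and 793.5 CPM in BB-p53n DMSO. The lowest PDGF-BB library was well above the highest p53n library. The rise was 1.86-fold (log2 fold change 0.89, SE 0.07, adjusted p = 2e-10). Exons of Tspan31, on the opposite strand, cover 19.7% of the exon bases of Cdk4, and reads there cannot be assigned to either strand. Tspan31 had 34635 counts and Cdk4 195269.

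Cdk6 (chromosome 5, 3391485 to 3581008, plus strand) was scarce, at 12.01, 12.53 and 10.26 CPM in p53n and 42.8, 38.3 and 43.8 CPM in BB-p53n DMSO. The groups were separate, and the rise of 3.59-fold (log2 fold change 1.84, SE 0.12, adjusted p = 2.7e-11) was larger than that of Cdk4. Per length, Cdk4 nevertheless supplied nearly all of the kinase transcript. The share of Cdk6 in the sum of both was 0.638% ± 0.0581 in p53n, 1.23% ± 0.124 with DMSO and 0.530% ± 0.110 with the inhibitor (SD, n = 3 each), as counted. The last step is not settled, because removal of a trend with GC content, described with the second comparison, left Cdk6 more raised by the inhibitor (0.64) than Cdk4 (0.19, log2 fold changes).

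The pocket protein genes moved in opposite directions. Rb1 (chromosome 14, 73421113 to 73563262, minus strand) stood at 49.5, 51.1 and 51.9 CPM in p53n and at 31.9, 28.7 and 30.1 CPM in BB-p53n DMSO. All PDGF-BB libraries were lower, and the level fell to 0.595 of p53n (log2 fold change -0.75, SE 0.09, adjusted p = 5.1e-07). Rbl1, the p107 gene with the E2F word (chromosome 2, 156987813 to 157046454, minus strand), stood at 16.97, 19.98 and 18.76 CPM in p53n and at 77.2, 70.3 and 78.8 CPM in BB-p53n DMSO. Here the PDGF-BB libraries were all higher, with a log2 fold change of 2.02 (SE 0.10, adjusted p = 3.9e-13).

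Rbl2, encoding p130 (chromosome 8, 91796685 to 91850472, plus strand), changed little. It stood at 58.7, 58.5 and 57.7 CPM in p53n and at 49.2, 48.9 and 54.1 CPM in BB-p53n DMSO. The groups did not overlap, but the difference was small (log2 fold change -0.20, SE 0.08, adjusted p = 0.032) and the call was lost in 7 of 21 alternative settings. It was lost without filter on low counts (adjusted p = 0.23), without genes of chromosomes X, Y and MT (adjusted p = 0.18), and when p53n replicate 1 (adjusted p = 0.30), 2 (0.086) or 3 (0.27) or BB-p53n DMSO replicate 1 (0.14) or 2 (0.14) was left out. Over all settings that leave GC content aside, adjusted p ran from 8e-04 to 0.30. Opposite-strand exons of Aktip and Gm45464 cover 9.17% and 11.8% of the exon bases of Rbl2, with 10125 and 91 counts beside 11450 of Rbl2.

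Rb1 and Rbl1 can be set against each other directly, since their exon lengths (6015 and 5993 bases) and GC contents (41.2% and 42.1%) are nearly equal. Per kb, the ratio of Rb1 to Rbl1 was 2.91, 2.55 and 2.76 in p53n against 0.412, 0.407 and 0.380 in BB-p53n DMSO. Rb1 thus exceeded Rbl1 in every p53n library and lay below it in every PDGF-BB library. Of the summed pocket protein transcript per length, Rb1 took 43.9% ± 0.557 in p53n and 20.7% ± 0.874 in BB-p53n DMSO, Rbl1 16.1% ± 0.994 and 51.7% ± 0.601, and Rbl2 40.1% ± 1.03 and 27.6% ± 1.09 (SD, n = 3 each). The sum itself was 19.3 CPM per kb ± 0.396 in p53n and 24.3 ± 1.22 in BB-p53n DMSO.

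The change of each member was set beside that of its chromosome and of genes near it. Chromosome 14, which carries Rb1, had a median log2 fold change of -0.49 over 567 tested genes in this comparison, against 0.00 over genes of the other autosomes. The 63 tested genes starting within 5 Mb of Rb1 had a median of -0.42, and 34.9% of them fell as much as Rb1 or more. The fall of Rb1 therefore came with a lower level of much of its chromosome, and the part of the chromosome in it was not tested. Around Ccnd1, 83 genes had a median of -0.23, and 0% of them rose as much as Ccnd1. The medians around the other 6 members lay between -0.32 (Cdk6) and 0.16 (Cdk4). Of the 101 genes around Cdk4, 28.7% rose as much as Cdk4 or more. Those starting before Cdk4 ran from 0.001 to 4.69, and those starting after it from -3.96 to 4.78. Around Rbl2, 45.2% of 84 genes fell as much as Rbl2 or more. For Ccnd2, Ccnd3, Cdk6 and Rbl1 this share ran from 3.1% (Rbl1) to 11% (Ccnd2). The part of the surroundings in these changes was not tested.

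**Figure D3:**
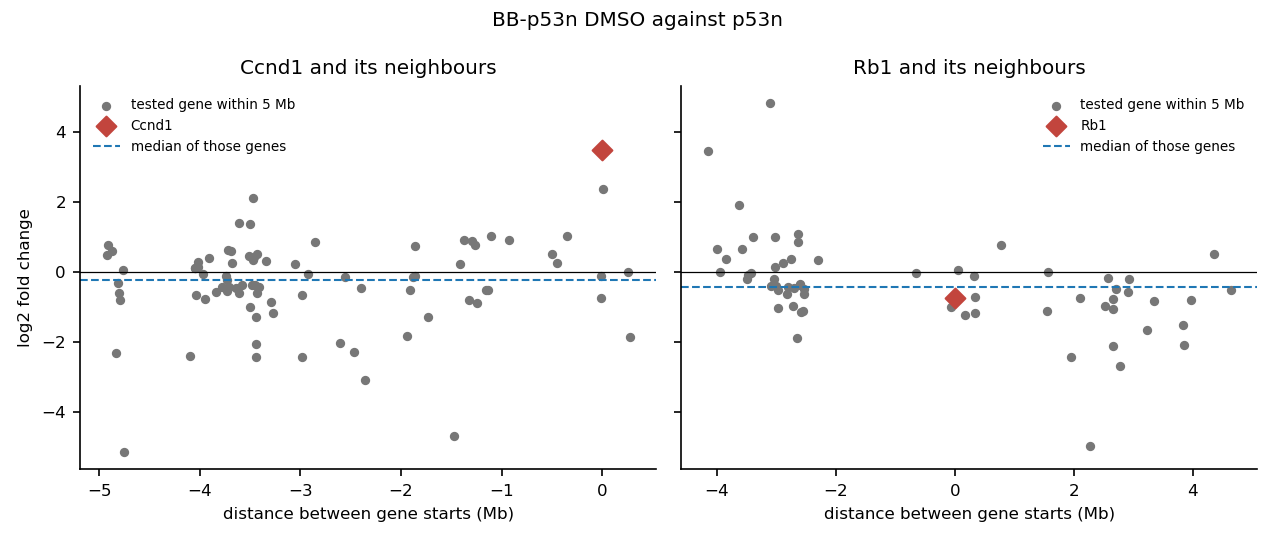
Log2 fold change of tested genes in BB-p53n DMSO against p53n (vertical axis) by the distance of their start from that of Ccnd1 or Rb1 (horizontal axis, Mb), with the member as a diamond and the neighbours' median dashed. Ccnd1 stands above all of its neighbours, whereas Rb1, at -0.75, lies within the spread of a neighbourhood whose median is -0.42.

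The partner genes around this module came from a list of 54 genes, of which 53 were in the table and tested. In BB-p53n DMSO against p53n, 38 were higher and 7 lower (4 without p53n replicate 1), with a median log2 fold change of 1.23. Of all tested genes 35.3% were higher and 34% lower. All 16 replication genes that E2F factors control rose, with a median of 2.42 and Mcm10, a replication initiation factor, in front (7.84 to 109.7 CPM, log2 fold change 3.81, SE 0.11, adjusted p = 6e-17). Of the 10 E2F and DP factors 8 rose and 1 fell, led by E2f1, an activating E2F that RB1 binds (3.64 to 34.7 CPM, log2 fold change 3.25, SE 0.10, adjusted p = 1.8e-16). Mybl2, the B-Myb partner of the MuvB complex, rose by 2.80 (SE 0.11, adjusted p = 3.5e-15). Cks1b, a cofactor of p27 degradation, rose by 1.80 (SE 0.08, adjusted p = 2.9e-14), whereas Ccnh, the cyclin of the CDK-activating kinase, fell by 0.48 (SE 0.10, adjusted p = 0.00022).

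Genes of the cyclin E and CDK2 step, which follows CDK4 and CDK6, were also higher. The counts below stand beside 69.3% of all tested genes called in this comparison, 35.3% of them higher as a share of all genes. All 5 genes of the E cyclin and CDK2 group rose, namely Ccne1 (log2 fold change 0.60), Ccne2 (1.16), Ccna2 (2.20), Cdk2 (0.96) and Cdc25a (0.97), with adjusted p between 1.2e-15 and 5.4e-05. Of the INK4 genes 3 of 4 rose, Cdkn2c by 1.97, Cdkn2d by 1.59 and Cdkn2a, which also encodes ARF, by 1.03, with adjusted p of 2.6e-10 or less. Cdkn2b, with 2.03 and 2.30 CPM, did not pass the test (0.19, SE 0.24, adjusted p = 0.50).

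The CIP/KIP genes diverged from each other. Cdkn1c, encoding p57, stood at 74.3, 68.0 and 72.3 CPM in p53n and at 2.99, 2.49 and 2.87 CPM in BB-p53n DMSO. This was the largest change on the partner list, in a gene known to accompany exit from the cell cycle (log2 fold change -4.68, SE 0.10, adjusted p = 2.4e-18). Cdkn1a, encoding p21, a gene known as a p53 target, rose from 12.95 to 32.72 CPM in these cells without p53 (log2 fold change 1.34, SE 0.09, adjusted p = 6.7e-11). Cdkn1b, encoding p27, averaged 124.9 and 125.7 CPM (log2 fold change 0.01, SE 0.13, adjusted p = 0.96). All 7 differentiating oligodendrocyte markers fell in the same comparison as Cdkn1c and Rb1, with a median log2 fold change of -2.99. Of all tested genes 34% were called lower there. All 5 astrocyte markers fell too, with a median of -4.66, and their summed level was 594.9 to 710.2 CPM in p53n and 376.9 to 404.9 CPM in BB-p53n DMSO. It was 271.1 to 291.5 CPM in BB-p53n EZH2i, where Aqp4 was at 0. Slc1a3 fell least of the 5 in the first comparison, by 0.67. With the inhibitor against DMSO, the median log2 fold change of the 5 was -0.73 as counted and 0.16 with the trend removed. The part of either cell type in these changes was not tested.

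The second comparison, BB-p53n EZH2i against BB-p53n DMSO, asks what accompanied EZH2 inhibition in PDGF-BB cells. It shares the BB-p53n DMSO libraries with the first. Ccnd1 and the summed D cyclin transcript were at similar levels with and without the inhibitor, Cdk4 rose, and Rb1 and Rbl2 fell. As counted, 2 members were higher (Ccnd3 and Cdk4), 5 lower (Ccnd2, Cdk6, Rb1, Rbl1 and Rbl2) and Ccnd1 was not called, beside 72.9% of all genes called (37.3% higher and 35.6% lower). For 7 of the 8 members the groups did not overlap, beside 75.3% of all genes. The members' median log2 fold change was -0.36, against 0.02 over all tested genes.

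Fold changes in this comparison followed the composition of the transcripts. Over 12786 genes, GC content correlated with the fold change at a Spearman rho of 0.75 and exon length at -0.43, while the first comparison gave 0.14 and -0.07. Genes share libraries, so these are descriptions without a test. The members span this range, from Rb1 (41.2% GC, percentile 9.5 of tested genes) to Ccnd3 (58.4% GC, percentile 91.3). Fold changes of the members below are therefore given as counted and after the trend with GC content and length was fitted across genes in each library and removed. Levels, sums and shares are as counted only. With the trend removed, 56.4% of 16652 genes were called (28.6% higher and 27.8% lower), and of the members 3 were higher (Ccnd2, Cdk4 and Cdk6), 3 lower (Ccnd1, Rb1 and Rbl2) and 2 not called (Ccnd3 and Rbl1). Only Cdk4, Rb1 and Rbl2 kept their call and direction both ways, and whether the trend is technical was not tested.

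**Figure D4:**
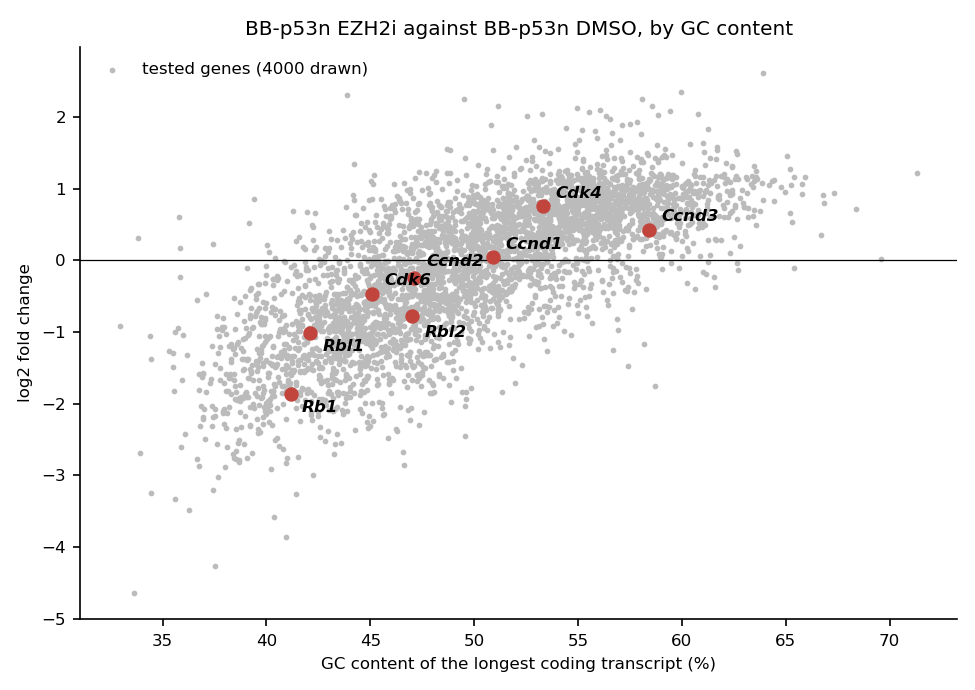
Log2 fold change in BB-p53n EZH2i against BB-p53n DMSO (vertical axis) by GC content of the longest coding transcript (horizontal axis, percent), for 4000 tested genes (grey) and the 8 members (red). Fold changes rise with GC content, and Rb1 and Rbl1, at 41.2% and 42.1% GC, lie in the low range.

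Ccnd1 stood at 1555, 1653 and 1574 CPM in BB-p53n DMSO and at 1683, 1621 and 1641 CPM in BB-p53n EZH2i. The groups overlapped, and the difference was within the spread (log2 fold change 0.05, SE 0.06, adjusted p = 0.49). With the trend removed it was -0.15 (SE 0.05, adjusted p = 0.017). The D cyclin sum was 428.9 CPM per kb ± 1.03 (SD, n = 3) with the inhibitor, 1.02 times that with DMSO, and the shares of Ccnd1, Ccnd2 and Ccnd3 were 81.6% ± 1.61, 12.9% ± 1.26 and 5.52% ± 0.376.

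Ccnd2 stood at 461.8, 560.5 and 533.3 CPM with the inhibitor, all below the 601.0 CPM of the lowest DMSO library. As counted it was lower (log2 fold change -0.25, SE 0.08, adjusted p = 0.0058), and with the trend removed it was higher (0.38, SE 0.08, adjusted p = 3e-04). Ccnd3 stood at 191.4, 214.2 and 218.1 CPM, all above the DMSO libraries. It was higher as counted (0.43, SE 0.07, adjusted p = 1.7e-05) and not called with the trend removed (0.02, SE 0.05, adjusted p = 0.82). Removing the trend thus turned the sign of Ccnd2 and took away the call of Ccnd3.

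Cdk4 rose further, to 1257, 1334 and 1359 CPM, all above the 806.7 CPM of the highest DMSO library. The rise was 1.69-fold as counted (log2 fold change 0.76, SE 0.07, adjusted p = 2.7e-09) and smaller with the trend removed (0.19, SE 0.05, adjusted p = 0.0037). The 918 genes of like GC content (within 2 percentage points) and exon length (within 0.5 on the log2 scale) had a median of 0.62. Their quartiles were 0.284 and 0.846, and the change of Cdk4 as counted lay between them. Cdk6 stood at 35.1, 24.6 and 30.5 CPM, all below DMSO. It was lower as counted (-0.47, SE 0.11, adjusted p = 0.00083) and higher with the trend removed (0.64, SE 0.09, adjusted p = 2e-06), and its 367 like genes had a median of -1.12.

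Rb1 stood at 9.59, 6.76 and 8.42 CPM with the inhibitor, below every DMSO library and every p53n library. It fell 3.63-fold as counted (log2 fold change -1.86, SE 0.11, adjusted p = 7.9e-12) and less with the trend removed (-0.66, SE 0.08, adjusted p = 4.8e-07). Its change lay below the middle 50% of its 653 like genes, which ran from -1.59 to -0.82. Opposite-strand exons of Rcbtb2 and Lpar6 cover 8.11% and 6.78% of its exon bases, with 9776 and 870 counts beside 7448 of Rb1. Within 5 Mb of Rb1 the median change was 0.12, and 1.6% of 63 neighbours fell as much as counted. With the trend removed, 16.1% of 62 neighbours did so, and 45.2% in the first comparison.

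Rbl1 stood at 43.8, 35.5 and 33.0 CPM with the inhibitor, between the p53n and the DMSO libraries. It was lower as counted (log2 fold change -1.01, SE 0.10, adjusted p = 1.1e-08) and not called with the trend removed (0.08, SE 0.08, adjusted p = 0.38), and its 756 like genes had a median of -1.14. Rbl2 stood at 31.9, 30.5 and 26.2 CPM, below every DMSO library. It fell both as counted (-0.78, SE 0.08, adjusted p = 4.7e-08) and with the trend removed (-0.25, SE 0.07, adjusted p = 0.0048). The change of Rbl2 as counted lay between the quartiles of its 982 like genes, which were -0.921 and -0.111.

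The Rb1 to Rbl1 ratio per kb, which compares genes of like length and GC content within a library, was 0.218, 0.190 and 0.254 with the inhibitor. All 3 values lay below the DMSO libraries, at 0.552 of their mean. Rb1 was then 11.9% ± 1.69 of the summed pocket protein transcript, Rbl1 54.1% ± 1.42 and Rbl2 34.0% ± 2.21, and the sum was 11.5 CPM per kb ± 1.43 (SD, n = 3 each). This sum is as counted, and the falls of Rbl1 and Rbl2 in it were smaller or absent with the trend removed, as given above.

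**Figure D5:**
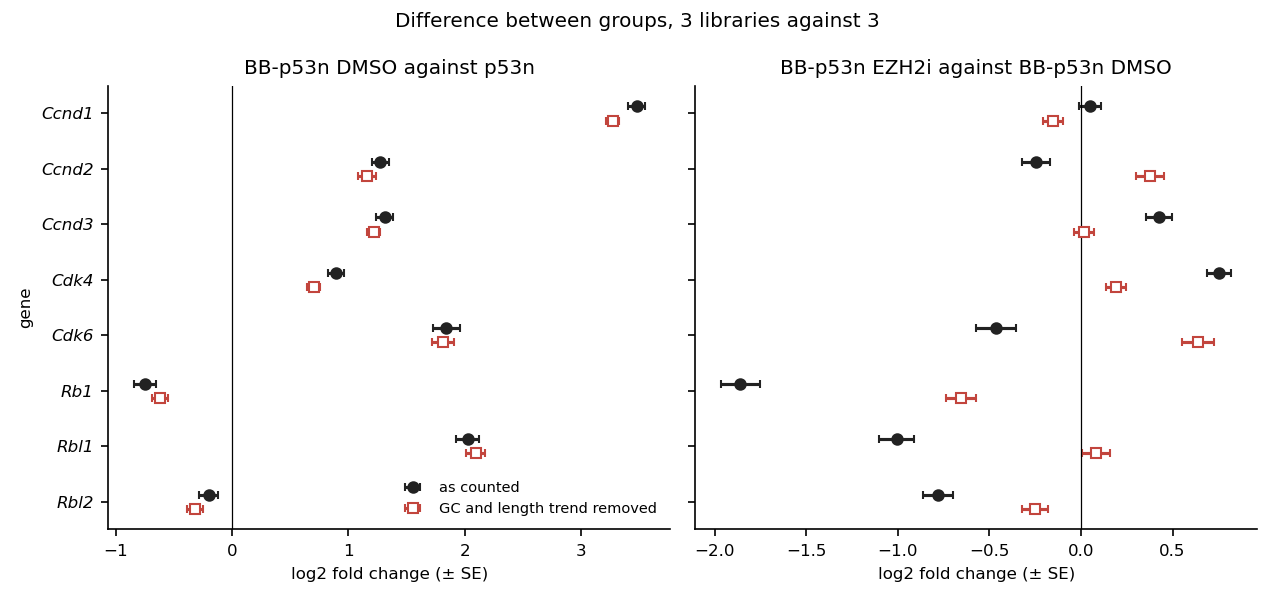
Log2 fold change ± SE of each member (horizontal axis) in the first (left) and second (right) comparison, as counted (black circles) and after trend removal (open squares). In the first comparison both values of each member have the same sign, and in the second the sign differs for Ccnd1, Ccnd2, Cdk6 and Rbl1.

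Among the partner genes, 28 of 53 were higher and 14 lower with the inhibitor, beside 37.3% and 35.6% of all tested genes. With the trend removed 29 were higher and 9 lower, beside 28.6% and 27.8% of all genes. Of the 16 replication genes 12 were higher and 2 lower, or 13 and 1 with the trend removed, and Mcm5, a helicase subunit, changed most as counted (364.4 to 828.2 CPM, log2 fold change 1.18, or 0.81 with the trend removed, adjusted p = 2.9e-11 and 4.5e-10). With the trend removed Rrm1, named after its values were seen, was larger at 1.36 (adjusted p = 4.6e-11). E2f1 rose again, by 1.05, and by 0.21 with the trend removed (adjusted p = 3.2e-10 and 0.0081). Gsk3b, the kinase that marks cyclin D1 for degradation, fell by 1.71 as counted and by 0.92 with the trend removed (adjusted p = 2.8e-14 and 5.5e-12). Lin37, a MuvB subunit, rose by 1.11 as counted and was at 0.19 with the trend removed (adjusted p = 1.2e-07 and 0.15), and Ccnh was at -0.74 and 0.56 (adjusted p = 1.5e-06 and 4.7e-07).

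Of the E cyclin group, Ccne1 rose by 1.13 as counted and by 0.58 with the trend removed, and Cdk2 by 0.57 and 0.68, all with adjusted p of 1.1e-06 or less. Ccne2 was at -1.54 and 0.09, Ccna2 at -0.25 and 0.11, and Cdc25a at 0.13 and 0.10, where the second value of each has the trend removed and did not pass the test. Cdkn1a rose to 72.0 CPM, by 1.14 as counted and by 0.51 with the trend removed (adjusted p = 3.5e-10 and 3.6e-06). No other inhibitor gene was called in the same direction both ways. Cdkn1b was at -0.91 and -0.09, Cdkn1c at 1.20 and 0.27, Cdkn2a at 0.22 and -0.81, Cdkn2b at -0.56 and -1.45, Cdkn2c at 0.35 and -0.51, and Cdkn2d at 0.96 and 0.10. Transcripts of INK4A and of ARF, both products of Cdkn2a, were counted together.

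The third comparison, BB-p53n EZH2i against p53n, was not named by the study and orders the 3 groups. It shares its libraries with the other two comparisons. Here 6 members were higher and 2 lower, both as counted and with the trend removed, while 82% of all genes were called (40.3% higher and 41.7% lower), or 77.7% with the trend removed (35.2% and 42.5%). The groups did not overlap for any member, beside 82.2% of all genes. Ccnd1 was 11.5-fold higher as counted (log2 fold change 3.52, SE 0.07, or 3.12 with the trend removed). Cdk4 was 3.14-fold higher (1.65, or 0.89 with the trend removed) and Ccnd3 3.34-fold (1.74, or 1.23). Rb1 was 6.10-fold lower (log2 fold change -2.61, SE 0.11, or -1.27 with the trend removed). Rbl1, at 1.02 as counted and 2.18 with the trend removed, remained above p53n in every library, and Rbl2 was lower (-0.98, or -0.57 with the trend removed). Adjusted p was 1.9e-07 or less for these values. By level as counted the order was p53n, DMSO, EZH2i from low to high for Ccnd3 and Cdk4, the reverse for Rb1 and Rbl2 (with the weak first step of Rbl2 given above), and p53n, EZH2i, DMSO for Ccnd2, Cdk6 and Rbl1. For Ccnd1 the PDGF-BB groups did not differ beyond their spread.

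For each member, the genes most alike over the 9 libraries were those with the smallest root mean square difference of centred log2 CPM, computed over 11453 candidates whose log2 CPM averaged 1 or more. Ccnd1 was closest to Pmp22, a peripheral myelin protein gene (difference 0.083, against a spread of 1.65 of Ccnd1 itself), Rrm2, a ribonucleotide reductase subunit gene (0.111), and Lmcd1 (0.115). Rbl1 ran closest to Dbf4, the activator of the replication kinase CDC7 (0.083), Eya1 (0.085) and Mcm8 (0.088). Rb1 was most like Pcdh17 (0.062), Lrif1 (0.081) and Gmfb (0.087), and Rbl2 was most like Ccdc127 (0.052), Kit (0.062) and Vps13d (0.067). Cdk4 ran with Cars, a cysteinyl-tRNA synthetase gene (0.038), Psat1, a serine synthesis enzyme gene (0.040), and Dnajb1 (0.050), and Cdk6 with Sfmbt2 (0.120), Cenpi (0.123) and Mdfic (0.126). Ccnd2 was closest to Gfra1 (0.068), G3bp1 (0.079) and Nr1d1 (0.094), and Ccnd3 to Limd1 (0.055), Grb14 (0.078) and Prx (0.082). This likeness was computed on CPM as counted, with the trend on GC content and length left in. It describes 9 libraries in 3 groups and was not tested, and neither was the part of that trend in it.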

How the data were processed

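Polyadenylated RNA of 9 libraries (3 groups of 3) was sequenced as 150 bp pairs from about 500 ng of RNA, per the labels' protocols. The authors deposited raw counts of fragments per gene, without normalization. Per the file headers, featureCounts 1.6.3 counted fragments over exons of Ensembl release 108 (GRCm39), required both ends to map, set a minimum mapping quality of 20 and used no strand option. The submitters' processing notes list Trimmomatic and Subread, whose settings the sources used here do not give. Symbols matched 52073 of 56980 gene rows.

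Counts were tested with edgeR 4.0.16 (R 4.3.3): filterByExpr, TMM scaling and 1 robust quasi-likelihood fit of all 9 libraries with group as the only term, Benjamini-Hochberg adjustment over 17001 genes and a threshold of 0.05. CPM are TMM-scaled, and CPM per kb divide by the deposited exon length. Trends with length and GC content (GENCODE vM21 transcripts, available for 97.9% of tested genes) were fitted with splines in each library and removed. Alternatives included DESeq2 1.42.0, limma-voom 3.58.1, other scalings and leaving out each library. Scripts were tested on simulated data. In a library 3 counts correspond to 0.0888 to 0.160 CPM, and such floors cover counting error only. Libraries of a group differed by more than sampling noise.

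The members, the partner list and the marker lists were chosen with earlier results of these data known. Named partner genes are all INK4, CIP/KIP and E cyclin genes and, of each other class, the called gene with the largest change in each of the first 2 comparisons.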

Additional observations from a re-analysis of the deposited data

How the results depend on the processing

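Of 504 values of the 8 members (24 results under 21 alternative settings), 482 kept their direction and their side of the threshold, 11 lost the call and 11 changed sign. For the other named genes 865 of 924 values did so. Setting 1 fit aside, which takes GC from the longest transcript of any kind and was added after the data were seen, the alternatives were fixed with the design. Outside the fits that remove the GC and length trend, the member calls that changed were those of Rbl2 in BB-p53n DMSO against p53n, and the count of members lower there was 1 in place of 2 without filter on low counts and without genes of chromosomes X, Y and MT, and 1 to 2 when a library was left out. The count of lower partner genes in that comparison was 4 to 7 when a library was left out.

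With the trend removed, EZH2i against DMSO gave 3 members and 9 partner genes lower, in place of 5 and 14, also with the replicate block and with GC of any transcript. Values that changed sign there were, in that order (trend removed, with block, any transcript), Ccnd1 -0.15, -0.15 and -0.19, Ccnd2 0.38, 0.38 and 0.32, Cdk6 0.64, 0.63 and 0.59, Cdkn2a -0.81, -0.81 and -0.78, Cdkn2c -0.51, -0.51 and -0.49, Ccna2 0.110, 0.109 and 0.057, Ccnh 0.56, 0.56 and 0.40, Trp53 -0.47, -0.47 and -0.43, and Ezh2 0.21, 0.21 and 0.13. Rbl1 (0.081 and 0.080) and Ccne2 (0.086 and 0.080) changed sign with the trend removed, without and with the block. The cause was not tested. The trend removal and upper-quartile scaling moved the median of all genes in the first comparison by -0.14 and -0.15, and the share of higher among called genes from 51.0% to 44.7% and 41.4%. In the third comparison the trend removal moved that median by -0.25.

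The replicate numbers were not taken as pairs. Deviations of same-numbered libraries correlated at -0.13, 0.00 and -0.03 between p53n and BB-p53n DMSO, at -0.22, 0.06 and -0.03 between p53n and BB-p53n EZH2i, and at 0.35, 0.28 and -0.01 between the PDGF-BB groups, where unlike numbers ran from -0.32 to 0.05. Between p53n and BB-p53n EZH2i unlike numbers ran from -0.23 to 0.27. Deviations were taken from each group's mean, so these correlations are not independent of each other. The values of numbers 1 and 2 between the PDGF-BB groups therefore do not decide whether these were paired, and number 3 gave no hint of it. With the replicate block 6 and 2, 2 and 5, and 6 and 2 members were higher and lower in the 3 comparisons, as without it.

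Limits: 3 libraries a group of unknown independence, no p53-intact group, and differences of origin and of the vehicle named that go with PDGF-BB. In the second comparison values that change with the trend removed have no settled direction.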
